A study of Mus musculus with 16 samples.

Results

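Collagen chains and the enzymes and helpers that fold, cross-link and trim them were followed through 16 RNA-seq libraries of mouse embryo fibroblasts (MEFs). The members are every gene of the deposited table named as a collagen chain (Col, number, a, number), as lysyl oxidase or a lysyl oxidase-like gene, as a lysyl hydroxylase (Plod) or as a catalytic prolyl 4-hydroxylase subunit (P4ha), together with Serpinh1, Leprel1, Lepre1, Bmp1 and Pcolce. This rule found 42 of the 12100 genes, 26 collagen chains and 16 enzymes and helpers. The chains divide into 9 of fibrillar collagens, 7 of network-forming collagens and 10 others. The enzymes and helpers divide into 5 lysyl oxidases, 3 lysyl hydroxylases, 5 prolyl hydroxylases and 3 genes of folding and processing.

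The study compared 4 kinds of MEF that differ in Arkadia, the RING ubiquitin ligase encoded by Rnf111 that acts in TGFβ signalling. WT cells were Ark+/+ and null cells Ark-/-. The other lines were Ark-/- cells that had received a retrovirus with the CAG promoter driving wild-type Arkadia (rvWT) or Arkadia with substitutions in its SUMO-interacting motifs (sim). All were grown in DMEM with serum and were left unstimulated (0 h) or given TGFβ at 2.5 ng/ml for 1, 4 or 16 h. The design text speaks of 2 batches of sequencing data, and the titles carry the tag A or B. These tags are taken here as the batches and called sets. Set A held WT and null at 0, 1, 4 and 16 h (8 libraries). Set B held rvWT and sim at 0, 1 and 4 h and null at 0 and 1 h (8 libraries). No library of an empty virus is used here, so infection and the restored protein cannot be told apart, and each genotype stands for its own cells. There was 1 library per line, set and time. Libraries of different times therefore stood in for replicates. The design text calls the samples independent without saying whether each came from its own culture, and a p-value here reflects only how far libraries scatter, part of which may be technical.

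Fibrillar collagens assemble into the banded fibrils that give connective tissue its tensile strength, whereas network collagens such as type IV form the sheet of the basement membrane. Each chain is hydroxylated on prolines and lysines in the endoplasmic reticulum, folds into a triple helix with its partners under the collagen chaperone Hsp47 (Serpinh1), is trimmed by propeptidases after secretion and is cross-linked by lysyl oxidases outside the cell. Fibroblasts are the main source of fibrillar collagen, and TGFβ is the best known stimulus of its synthesis.

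Values are FPKM, which scale fragments to transcript length and to mapped fragments, so levels can be set beside each other between genes. The read depth is unknown, and the total FPKM of a library ran from 397019 to 481970. Rnf111 followed the labels, at 14.5 to 15.1 FPKM in WT, 0.121 to 0.527 in null of both sets, 102.5 to 125.8 in rvWT and 56.0 to 62.1 in sim. Apart from Lum in WT, the fibroblast markers in the table (9 of 12) were detected in every line. Thy1 (2.00 to 2.31 FPKM) and Prrx1 (1.69 to 4.75) were low in WT. The summed level of the 9 was lower in WT (1815 to 2322 FPKM) than in null (5501 to 6024), rvWT (7226 to 7922) and sim (6577 to 6859). Vim stood at 1203 to 1322 FPKM in WT against 1230 to 1558 in null, while Lum was at 0 to 0.0612 FPKM in WT. The fibroblast sum includes the members Col1a1 and Col1a2. Most of its gap between WT and null lies in S100a4 and Col1a1. S100a4 was at 65.9 to 87.2 FPKM in WT, 1813 to 2954 in null of set A and 3230 to 3453 in that of set B. Of 3 epithelial markers in the table (of 6), Krt19 was at 267.5 to 519 FPKM in WT and at 0.672 to 4.91 elsewhere, while Krt8 and Krt18 were under 1.2 FPKM in WT. The part of these marker differences in the results below was not tested, and in bulk RNA fewer cells of a type and less RNA per cell cannot be told apart. Every gene of the table averages at least 0.25 FPKM within set A and again within set B, so a collagen expressed in WT and silent in all lines of set B is not analysed here, which can tilt counts toward members lower in WT. Among the members 8 (Col6a3, Col18a1, Loxl4, Plod2, P4ha2, Lepre1, Serpinh1 and Bmp1) are listed as one named transcript variant and may miss other isoforms.

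The members covered a wide span of levels. Col1a1, the major chain of type I collagen, was the highest, from 436.5 FPKM in WT at 0 h to 2477 in rvWT at 4 h. Its partner Col1a2, the type III chain Col3a1, the type V chain Col5a2, Serpinh1, Lox (lysyl oxidase) and Pcolce (the enhancer of procollagen trimming) followed, with mean levels that ranked between 75 and 221 among the 12100 genes. At the other end Col11a2, Col15a1 and Col4a3 never exceeded 2.53 FPKM and averaged at least 1 FPKM in no comparison and were not tested. Summed over the 42 genes, the members made up 0.521% to 0.797% of all FPKM in WT, 0.975% to 1.45% in null of set A, 1.01% to 1.05% in that of set B, 1.40% to 1.49% in rvWT and 1.43% to 1.51% in sim. The 9 fibrillar chains supplied most of it, with summed levels of 801 to 1527 FPKM in WT, 1751 to 2951 in null of set A, 1977 to 2042 in that of set B, 3537 to 4099 in rvWT and 3400 to 3821 in sim. WT libraries were thus the lowest and the reconstituted lines the highest in fibrillar chains, with no overlap between WT, null and the reconstituted lines.

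**Figure D1:**
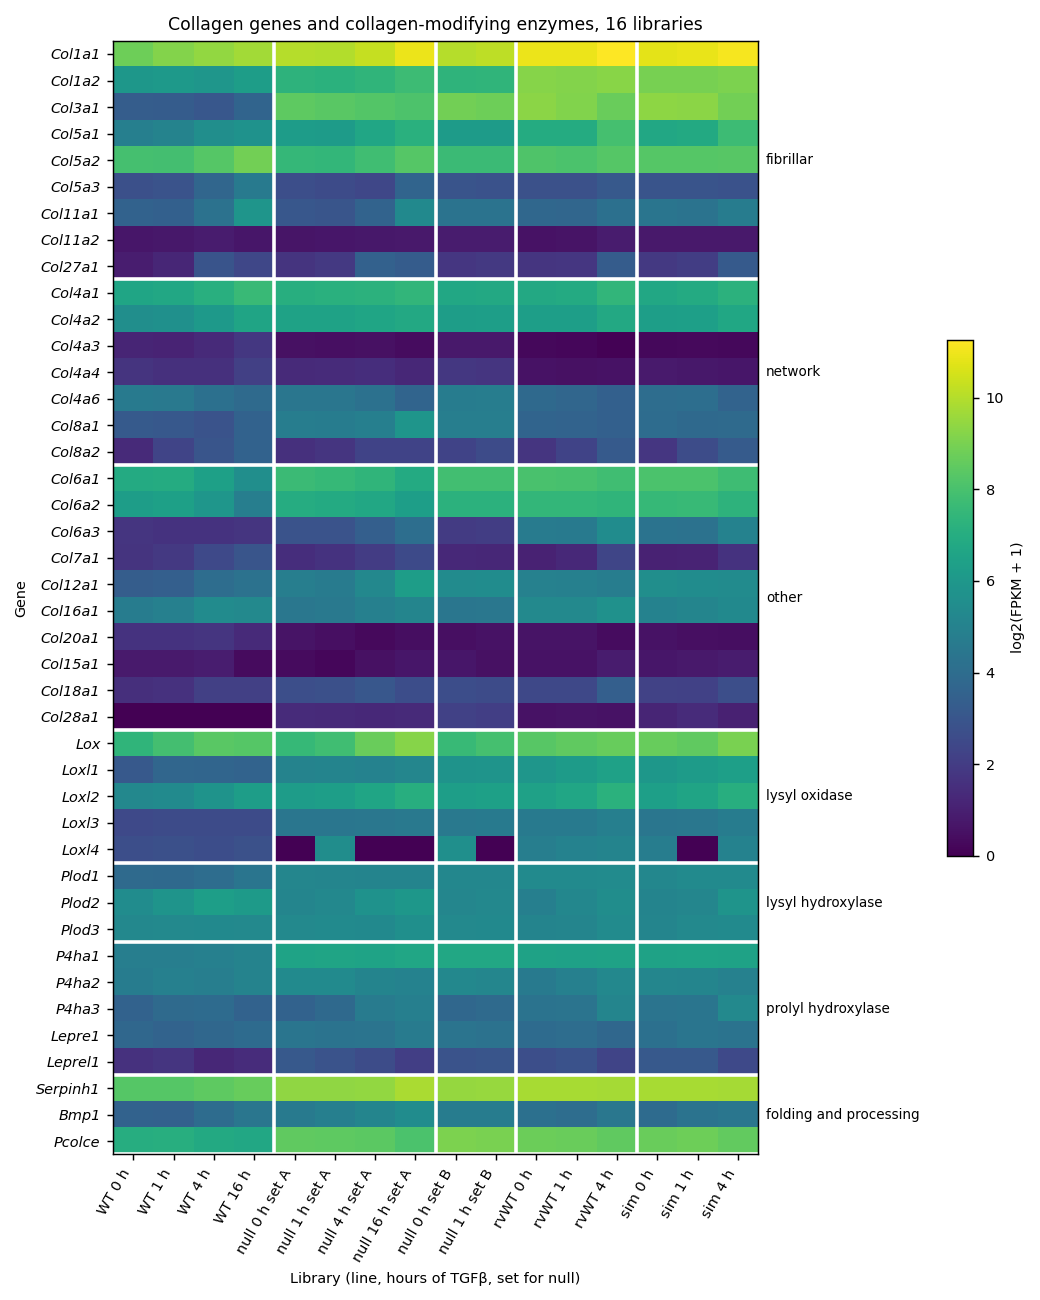
Level of each of the 42 genes in each of the 16 libraries, as log2(FPKM + 1) in colour, with genes in rows by group and libraries in columns by line and hours of TGFβ. Col1a1 is the brightest row, Col3a1 changes from 7.33 to 11.6 FPKM in WT to 279 FPKM or more in the other lines, and Loxl4 is listed at 0 in 5 libraries.

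WT and null MEFs were compared over the 8 libraries of set A, with time as a block, to find which members differ with Arkadia. Most members that differed were lower in WT: of 38 tested, 22 were lower, 7 were higher and 9 did not pass (limma on log2(FPKM + 1), adjusted p below 0.05). Passing is common in this comparison, at 67.5% of the 10976 genes tested (37.4% with the higher level in WT and 30.1% with the lower). The median log2 difference was -0.797 over the members tested and 0.074 over all genes. Because 1 is added to each value, fold changes of weakly expressed genes come out too small. WT lay below null in every pair of libraries for 18 of 42 members (25.8% of all genes) and above it for 3 (30.6%). In the lists of values that follow, the values of a line are in order of time, 0, 1, 4 and 16 h for WT and null of set A, 0, 1 and 4 h for rvWT and sim, and 0 and 1 h for null of set B.

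Among fibrillar chains 5 were lower and 3 higher in WT, and all 8 tested passed. Col3a1, which makes the type III homotrimer of extensible tissues, stood at 9.05, 8.82, 7.33 and 11.6 FPKM in WT and at 359, 330.2, 309 and 279 in null (log2 difference -4.98 ± 0.13 SE, adjusted p = 2.49e-05). All 4 WT libraries stood far under all 4 null libraries. Col1a1 stood at 436, 588, 693 and 829 FPKM in WT and at 1030, 1008, 1255 and 1942 in null (log2 difference -1.02 ± 0.095 SE, adjusted p = 0.000461). Its partner Col1a2 was at 62.1, 66.0, 59.0 and 77.1 FPKM in WT and at 154, 146, 164 and 212 in null (log2 difference -1.33 ± 0.066 SE, adjusted p = 8.95e-05). Both type I chains were lower in each WT library than in each null library. Col5a1, the type V chain that helps start fibrils, was at 28.2, 31.6, 46.2 and 52.4 FPKM in WT and at 73.8, 72.9, 101 and 142 in null (log2 difference -1.27 ± 0.066 SE, adjusted p = 0.000101), also without overlap. Its partner chain Col5a2 went the other way, at 248, 241, 311 and 469.5 FPKM in WT against 179, 178, 221 and 315 in null (log2 difference 0.49 ± 0.038 SE, adjusted p = 0.000277). It was higher in WT at each time, although the ranges of the 2 lines overlap. Col11a1, a minor fibrillar chain of type XI collagen, was at 10.5, 9.94, 18.3 and 58.5 FPKM in WT and 7.29, 6.82, 11.2 and 39.6 in null (log2 difference 0.54 ± 0.055 SE, adjusted p = 0.000611). Col5a3, the least abundant type V chain, was at 5.66, 6.45, 12.1 and 23.8 FPKM in WT and 5.44, 4.89, 4.32 and 11.5 in null (log2 difference 0.67 ± 0.22 SE, adjusted p = 0.0411), a call lost when the WT or the null library at 1, 4 or 16 h is left out. Col27a1, at 0.862, 1.33, 6.63 and 4.36 FPKM in WT and 2.28, 2.61, 10.2 and 8.65 in null, was lower (-0.71 ± 0.08 SE, adjusted p = 0.000851).

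Of the 6 network chains tested 2 were lower in WT and 4 did not pass. Col4a2, which builds the type IV trimer of basement membranes with Col4a1, was at 45.9, 50.2, 64.8 and 95.5 FPKM in WT and at 88.6, 88.4, 97.9 and 112 in null (log2 difference -0.64 ± 0.12 SE, adjusted p = 0.00602). Col4a1 was at 98.5, 106, 136 and 199 FPKM in WT and 133, 141, 151 and 168 in null (log2 difference -0.19 ± 0.12 SE, adjusted p = 0.224), lower in WT at 0, 1 and 4 h and higher at 16 h. Col8a1, a short-chain collagen of vessel walls and corneal basement membrane, was at 8.22, 7.64, 6.45 and 10.6 FPKM in WT and 26.5, 25.6, 28.1 and 58.6 in null (log2 difference -1.88 ± 0.14 SE, adjusted p = 0.000266), with every WT library below every null library. The related Col8a2 (0.57, adjusted p = 0.083), Col4a4 (0.39, adjusted p = 0.0663) and Col4a6 (0.15, adjusted p = 0.11) did not pass.

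The other collagens held the same mixture, with 5 lower and 3 higher in WT of 8 tested. The type VI chains, which form beaded microfibrils around cells, were all lower. Col6a1 stood at 119, 120.1, 83.5 and 45.9 FPKM in WT and 206, 188, 165 and 117 in null (log2 difference -0.93 ± 0.12 SE, adjusted p = 0.00124). Col6a2 stood at 77.1, 82.9, 59.7 and 27.1 FPKM in WT and 124, 117, 109 and 77.9 in null (log2 difference -0.88 ± 0.17 SE, adjusted p = 0.00574). Col6a3 was far lower in level, at 2.32, 2.16, 2.14 and 2.36 FPKM in WT and 6.48, 6.28, 9.70 and 15.7 in null (log2 difference -1.61 ± 0.21 SE, adjusted p = 0.00147). For Col6a3 no WT library reached a null library, whereas Col6a1 and Col6a2 overlap through the null library at 16 h. Col12a1, a fibril-associated collagen, was at 8.98, 9.75, 15.3 and 18.1 FPKM in WT and 27.3, 25.1, 37.7 and 76.5 in null (log2 difference -1.51 ± 0.14 SE, adjusted p = 0.000465). Col16a1, also fibril-associated, was higher in WT at 25.4, 28.7, 42.0 and 38.8 FPKM against 21.2, 22.6, 29.5 and 34.3 (log2 difference 0.31 ± 0.065 SE, adjusted p = 0.00847). Col20a1 (1.16) and Col7a1 (0.33), the anchoring fibril collagen, were higher and Col18a1 (-0.94), the source of endostatin, was lower, with 7.35 FPKM for Col18a1 in null at 4 h as the highest of these values. The Col7a1 call is lost without the 4 h library of either line. Col28a1 was at 0.0142 to 0.0240 FPKM in WT and 1.47 to 1.63 in null of set A, and was not tested there because its mean stayed under 1 FPKM.

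Among the enzymes and helpers 10 of 16 were lower in WT and 1 was higher. P4ha1, a catalytic subunit of the prolyl 4-hydroxylase that stabilises the triple helix, was at 27.4, 27.7, 29.2 and 32.1 FPKM in WT and 92.7, 93.6, 91.7 and 100.1 in null (log2 difference -1.67 ± 0.044 SE, adjusted p = 2.48e-05). Both lines kept far apart at each time. P4ha2 (-0.34, adjusted p = 0.0562) and P4ha3 (-0.49, adjusted p = 0.133) did not pass, while the prolyl 3-hydroxylases Leprel1 (-1.18) and Lepre1 (-0.66) were lower in WT. Loxl3, a lysyl oxidase-like cross-linking enzyme, stood at 4.55, 4.98, 4.90 and 4.94 FPKM in WT and 20.3, 20.8, 21.0 and 22.4 in null (log2 difference -1.92 ± 0.051 SE, adjusted p = 2.48e-05). Loxl1 (-1.51) and Loxl2 (-0.88) were lower too. Lox itself was at 167, 237, 334 and 317 FPKM in WT and 186, 228, 411 and 592 in null and did not pass (log2 difference -0.32 ± 0.16 SE, adjusted p = 0.118), the lines being close at 0 and 1 h and furthest apart at 16 h. Serpinh1 stood at 318, 316, 358 and 398 FPKM in WT and 683, 684, 687 and 931 in null (log2 difference -1.09 ± 0.053 SE, adjusted p = 8.38e-05). Bmp1, the procollagen C-proteinase, was at 10.5, 10.5, 14.8 and 20.2 FPKM in WT and 23.5, 28.4, 34.0 and 43.5 in null (-1.16). Pcolce, which assists it, was at 128, 134, 114 and 108 FPKM in WT and 368, 358, 342 and 273 in null (-1.46), and both were lower in WT. The lysyl hydroxylases split. Plod1 was lower (-1.09) and Plod3 did not pass (-0.12, adjusted p = 0.127). Plod2, which hydroxylates telopeptide lysines for stable cross-links, was higher in WT at 43.7, 55.7, 78.6 and 69.6 FPKM against 33.8, 37.3, 52.6 and 61.5 (log2 difference 0.42 ± 0.08 SE, adjusted p = 0.0059). Loxl4 was listed at 0 in 5 libraries and elsewhere at up to 47.3 FPKM, including 45.8 FPKM in null of set A at 1 h between zeros at 0 and 4 h, so its values are uncertain and it is not described further.

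**Figure D2:**
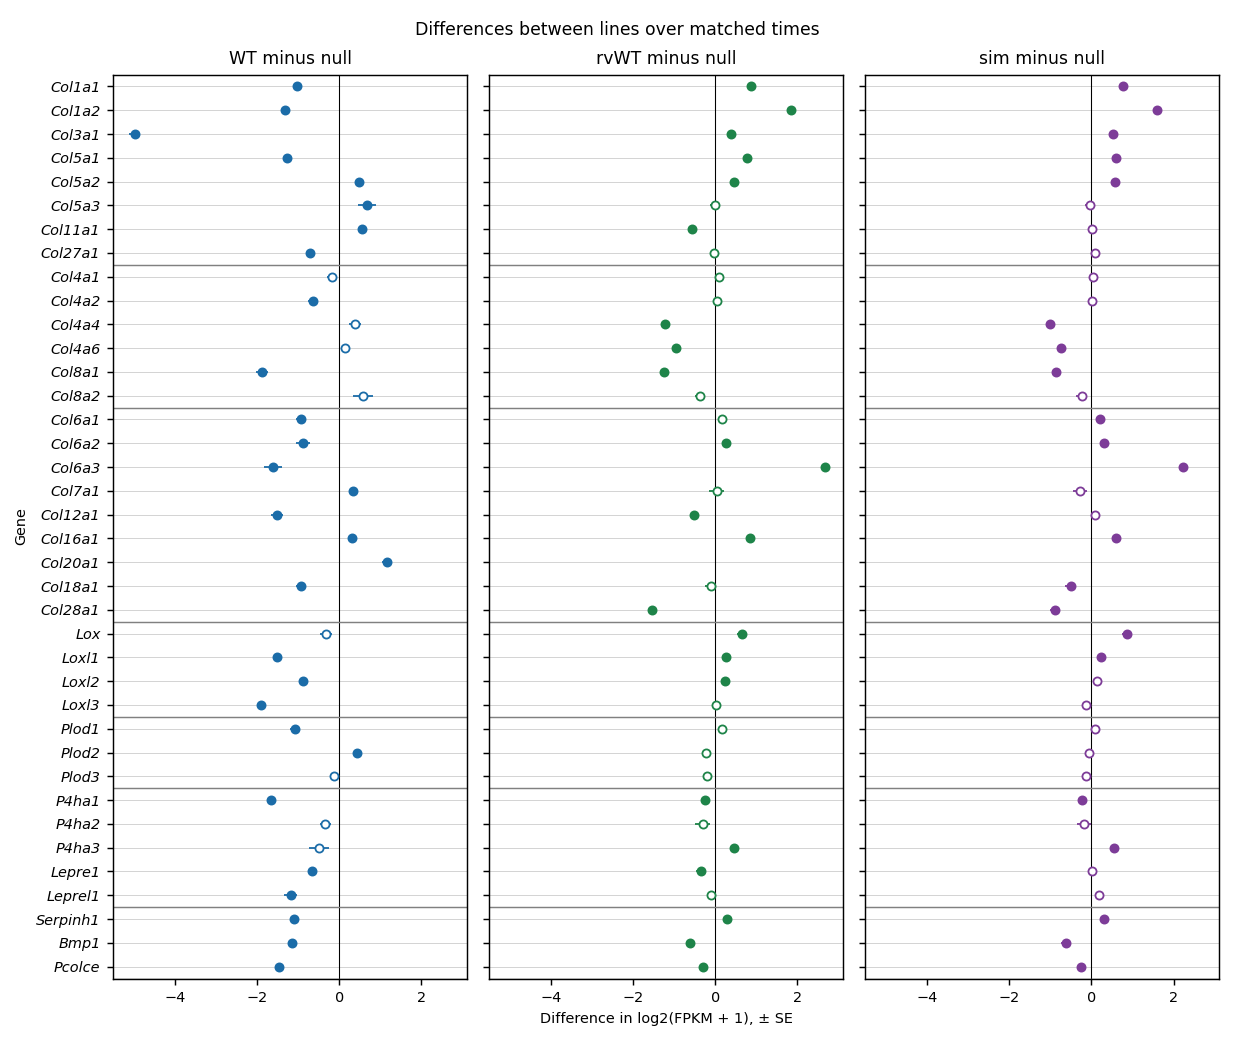
Difference in log2(FPKM + 1) of WT, rvWT and sim from the null libraries of their own set, for each member tested except Loxl4, with bars of 1 SE; filled points passed (adjusted p below 0.05) and grey lines divide the gene groups. Col3a1 is at -4.98 in WT and above 0 in rvWT and sim, and Col6a3 moves from -1.61 to 2.67 and 2.23.

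The reconstituted lines were set against the null libraries of set B to ask what returning Arkadia does to the same genes. In rvWT 13 members were higher than in null, 10 were lower and 15 did not pass, of 38 tested. Over all genes 38.6% passed, 16% higher and 22.6% lower. In sim 13 were higher, 8 were lower and 17 did not pass, against 34.7% of all genes, 13.9% higher and 20.8% lower. Rises made up 41.5% of all genes called in rvWT and 40.1% in sim as deposited, and 54.3% and 52.3% with quantile normalization. These comparisons share their null libraries, of which there are 2, so their values are given side by side and their likeness is not counted as a result. The count for rvWT was 13 without the null 0 h library, 14 without the null 1 h library and 15 without the rvWT 0 h library, and that for sim was 12 without either null library. The median log2 difference of the members tested was 0.024 in rvWT and 0.023 in sim, beside -0.029 and -0.022 over all genes.

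Col6a3 and Col1a2 had the largest positive differences of the members that passed, in either line. Col6a3 stood at 2.92 and 3.17 FPKM in null of set B, 24.7, 24.2 and 44.1 in rvWT and 18.4, 17.8 and 31.1 in sim (log2 difference 2.67 ± 0.058 SE in rvWT, adjusted p = 3.77e-05, and 2.23 ± 0.058 in sim, adjusted p = 7.30e-05). All 6 reconstituted libraries lay far above both null libraries. Col1a2 was at 162 and 163 FPKM in null, 592, 579 and 617 in rvWT and 493, 502 and 524 in sim (rvWT 1.84 ± 0.046 SE, adjusted p = 4.25e-05; sim 1.61 ± 0.046, adjusted p = 8.36e-05). Col1a1 was at 1040 and 1127 FPKM in null, 1960, 1988 and 2477 in rvWT and 1792, 1938 and 2258 in sim (rvWT 0.87 ± 0.059 SE, adjusted p = 0.000412; sim 0.77 ± 0.059, adjusted p = 0.00075). Both type I chains were above null in all 6 reconstituted libraries, Col1a2 by the larger factor. Col5a1 was at 71.3 and 73.0 FPKM in null, 121, 122 and 245 in rvWT and 109, 114 and 208 in sim (0.76 ± 0.05 and 0.60 ± 0.05 SE, adjusted p = 0.000383 and 0.001). Col5a2, at 205 and 207 FPKM in null, was at 285, 270.5 and 312 in rvWT and 312, 314 and 326 in sim (0.45 ± 0.055 and 0.58 ± 0.055 SE, adjusted p = 0.00281 and 0.00143), again with no overlap. Col3a1 was at 469 and 443 FPKM in null, 630.1, 556 and 413 in rvWT and 665, 634 and 465 in sim (0.37 ± 0.053 and 0.51 ± 0.053 SE, adjusted p = 0.00467 and 0.00187), higher at 0 and 1 h, while the 4 h libraries have no null partner in this set. Col16a1 was at 20.5 and 21.4 FPKM in null, 38.0, 38.1 and 51.0 in rvWT and 30.5, 34.4 and 40.2 in sim (0.85 and 0.59). Among the enzymes Lox stood at 194 and 244 FPKM in null, 325, 371 and 397 in rvWT and 407, 371 and 510.3 in sim (0.64 ± 0.12 and 0.87 ± 0.12 SE, adjusted p = 0.0112 and 0.00464), above null in all 6 libraries. P4ha3 (0.46 and 0.55), Serpinh1 (0.29 and 0.30), Loxl1 (0.25 and 0.24) and Col6a2 (0.26 and 0.29) were higher in both lines. Serpinh1 was at 722 and 731 FPKM in null, 892, 884 and 874 in rvWT and 882, 902 and 876 in sim. Col6a2 was at 149 and 150.2 FPKM in null, 177, 177 and 164 in rvWT and 185, 189.8 and 156 in sim. Col6a1 was at 233 and 233 FPKM in null, 264, 252 and 225 in rvWT and 271, 273 and 219 in sim and passed in sim (0.20, adjusted p = 0.0392; rvWT 0.17, adjusted p = 0.0643). With a pair of null libraries several of these calls were fragile. Those of Serpinh1, Col6a2 and, in sim, Col6a1 were lost without either null library, that of Col3a1 in rvWT without null 0 h, that of Lox in rvWT without null 0 h, rvWT 0 h or rvWT 1 h, and that of Loxl1 in sim without any 1 of the 8 libraries. When null of both sets served as the reference, Col3a1 (adjusted p = 0.11), Lox (0.082), Col6a2 (0.203), Loxl1 (0.0838) and P4ha3 (0.143) no longer passed in rvWT, and Col6a1, Col6a2, Loxl1, P4ha3 and Col18a1 no longer passed in sim (0.054 to 0.17).

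Other members were lower in the reconstituted lines. Of 6 network chains tested, 3 were lower in rvWT and 3 in sim, and none was higher in limma's test. Col8a1 was at 27.0 and 27.5 FPKM in null, 11.3, 10.9 and 9.87 in rvWT and 14.9, 13.7 and 13.9 in sim (-1.24 ± 0.062 and -0.87 ± 0.062 SE, adjusted p = 0.000182 and 0.000636). Col4a6, a basement membrane chain, was at 26.0 and 26.1 FPKM in null, 13.4, 12.1 and 10.1 in rvWT and 15.1, 15.6 and 11.1 in sim (-0.96 ± 0.069 and -0.75 ± 0.069 SE, adjusted p = 0.000529 and 0.00136). Both null libraries were above every reconstituted library for these genes. Col4a4 (-1.23 and -1.01) and Col28a1 (-1.54 and -0.90), both under 4 FPKM, were lower. The abundant pair Col4a1 and Col4a2 did not pass. Col4a1 was at 107 and 109.5 FPKM in null, 110.1, 117 and 172 in rvWT and 108, 119 and 150.5 in sim (0.10 ± 0.065 and 0.032 ± 0.065 SE). Col4a2 was at 77.4 and 78.9 FPKM in null, 78.6, 79.8 and 112 in rvWT and 78.3, 82.5 and 103 in sim (0.045 ± 0.056 and 0.015 ± 0.056 SE). Bmp1 was at 25.6 and 25.3 FPKM in null, 17.0, 15.6 and 21.0 in rvWT and 14.3, 18.4 and 20.4 in sim (-0.61 ± 0.11 and -0.63 ± 0.11 SE, adjusted p = 0.0103 and 0.0105). Pcolce was at 523 and 509 FPKM in null, 426, 415 and 369.6 in rvWT and 414, 444 and 379.9 in sim (-0.29 and -0.26), so that the messages for the C-proteinase and its enhancer were lower while those of type I collagen were higher. P4ha1 was at 106 and 107 FPKM in null, 90.6, 85.7 and 88.6 in rvWT and 90.2, 92.7 and 88.8 in sim (-0.26 and -0.23). The calls of Bmp1, Pcolce and P4ha1 were lost in either line without either null library. Lepre1 passed as lower in rvWT (-0.36, adjusted p = 0.0398; sim 0.0087, adjusted p = 0.954) and Col18a1 in sim, at 5.37 and 5.01 FPKM in null against 3.74, 3.50 and 5.48 in sim (-0.51, adjusted p = 0.0394; rvWT -0.11, adjusted p = 0.548), each call lost without any of several single libraries, both null ones included. The lysyl hydroxylases passed in neither line; Plod2 was at 35.0 and 37.9 FPKM in null, 28.1, 36.3 and 44.8 in rvWT and 32.5, 35.1 and 56.7 in sim.

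The difference of WT from null was not matched gene by gene in rvWT, which was compared with other null libraries. Of 22 members lower in WT than in null, 9 were higher in rvWT than in null (9 of the 13 higher there) and 6 were lower (6 of 10). The 9 were Col1a1, Col1a2, Col3a1, Col5a1, Col6a2, Col6a3, Loxl1, Loxl2 and Serpinh1. Besides the fragile calls of Col3a1, Col6a2 and Serpinh1 given above, those of Loxl1 and Loxl2 in rvWT were lost without several single libraries. Among these were null 1 h for both and null 0 h for Loxl2. Loxl2 was at 78.1 and 82.7 FPKM in null of set B and 87.9, 101.9 and 144.6 in rvWT. The 6 were Bmp1, Col12a1, Col8a1, Lepre1, P4ha1 and Pcolce. Of 7 members higher in WT, Col16a1 and Col5a2 were also higher in rvWT and Col11a1 was lower. In sim the corresponding counts were 9 higher and 5 lower of the 22. The same crossing was not counted over all genes, so these counts are not shown to be particular to the members. The null libraries themselves differed between sets at matched times: the absolute log2 difference reached 0.5 in 8 of 38 members (21.1%) at 0 h, beside 15.0% of all genes, with a median of 0.194 in the members and 0.219 in all genes. The members that moved most between the null libraries were Col11a1 (1.27 higher in set B at 0 h and 1.35 at 1 h on the log2 scale), Col6a3 (-0.93 and -0.80), Col8a2, Col28a1, Loxl1 and Col12a1. Of these Col11a1, Col6a3, Col28a1, Loxl1 and Col12a1 passed for rvWT against null of set B. Null of set A was above WT and below rvWT for Col6a3 all the same, at 6.28 to 15.7 FPKM against 2.14 to 2.36 in WT and 24.2 to 44.1 in rvWT. For Col11a1 and Col12a1, however, the direction depended on the null used. At 0 and 1 h rvWT was at 12.6 and 12.1 FPKM for Col11a1 and 30.0 and 28.9 for Col12a1. Null of set A was lower, at 7.29 and 6.82 FPKM for Col11a1 and 27.3 and 25.1 for Col12a1. Null of set B was higher, at 18.9 and 18.9 FPKM for Col11a1 and 41.8 and 43.9 for Col12a1.

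The sim and rvWT lines differ in the SUMO-interacting motifs of the Arkadia they received and in its level. Of 38 members tested 3 passed, beside 0.493% of all genes. Col12a1 stood at 30.0, 28.9 and 26.6 FPKM in rvWT and 46.6, 43.9 and 41.9 in sim (log2 difference 0.61 ± 0.047 SE, adjusted p = 0.0204). Col11a1 was at 12.6, 12.1 and 17.0 FPKM in rvWT and 19.6, 18.7 and 25.3 in sim (log2 difference 0.58 ± 0.042 SE, adjusted p = 0.0188). Both were higher in each sim library than in each rvWT library, and sim lay beside null of set B, at 41.8 and 43.9 FPKM for Col12a1 and 18.9 and 18.9 for Col11a1. Col6a3 was lower in sim (log2 difference -0.44 ± 0.05 SE, adjusted p = 0.0472), from the values given above, with overlap through the sim library at 4 h. Without any 1 of the 8 libraries of set B no member passed, with 13 to 17 of them at an unadjusted p under 0.05 against 16 in the whole fit. The other differences, which did not pass, lay between -0.39 for Col18a1 and 0.64 for Col28a1, Loxl4 aside. For the abundant type I and III chains the difference was -0.10 ± 0.05 for Col1a1, -0.23 ± 0.04 for Col1a2 and 0.14 ± 0.045 SE for Col3a1, and these do not show that the lines are alike. Rnf111 was lower in sim than in rvWT, so motif and level cannot be told apart.

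TGFβ was followed in a joint fit over all 16 libraries with the 5 series (WT, rvWT, sim and the null cells of each set) as a block. The baseline of a series in this fit draws on all its libraries, whereas changes given for single series are from its own 0 h library. At 1 h no member of 38 passed in limma's test, with 4 at an unadjusted p under 0.05, beside 5.96% of all genes that passed, 3.95% up and 2.01% down. Those 4 were Col8a2 (0.56, adjusted p = 0.0861), Loxl2 (0.15), Plod2 (0.21) and Loxl1 (0.23), all with positive differences. At 4 h 20 members rose, 5 fell and 13 did not pass, beside 39% of all genes, 11.9% up and 27.1% down. At 16 h, measured in WT and null of set A, 21 rose, 5 fell and 12 did not pass, beside 19.4% of all genes, 6.84% up and 12.5% down. The median log2 difference of the members tested was 0.215 at 4 h and 0.490 at 16 h, against -0.083 and -0.066 over all genes. The share of rises among all genes that passed depends on the scaling: at 4 h it was 30.6% as deposited, 49.2% with median-ratio scaling and 45.6% with quantile normalization, and at 16 h 35.3%, 50.7% and 50.8%. No member call reversed under either scaling, but the 4 h calls of Col6a1 and Pcolce were lost with median-ratio scaling and that of Col5a2 with quantile normalization. Taken by set, the 4 h response passed for 1 member (Col27a1) in set A alone, where 16 genes of 10976 passed in all. In set B alone it passed for 22 members, beside 1398 rises and 2868 falls over all genes, of 10958 tested. The 16 h response passed for 12 members in set A alone, beside 121 rises and 124 falls over all genes, of 10976 tested.

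**Figure D3:**
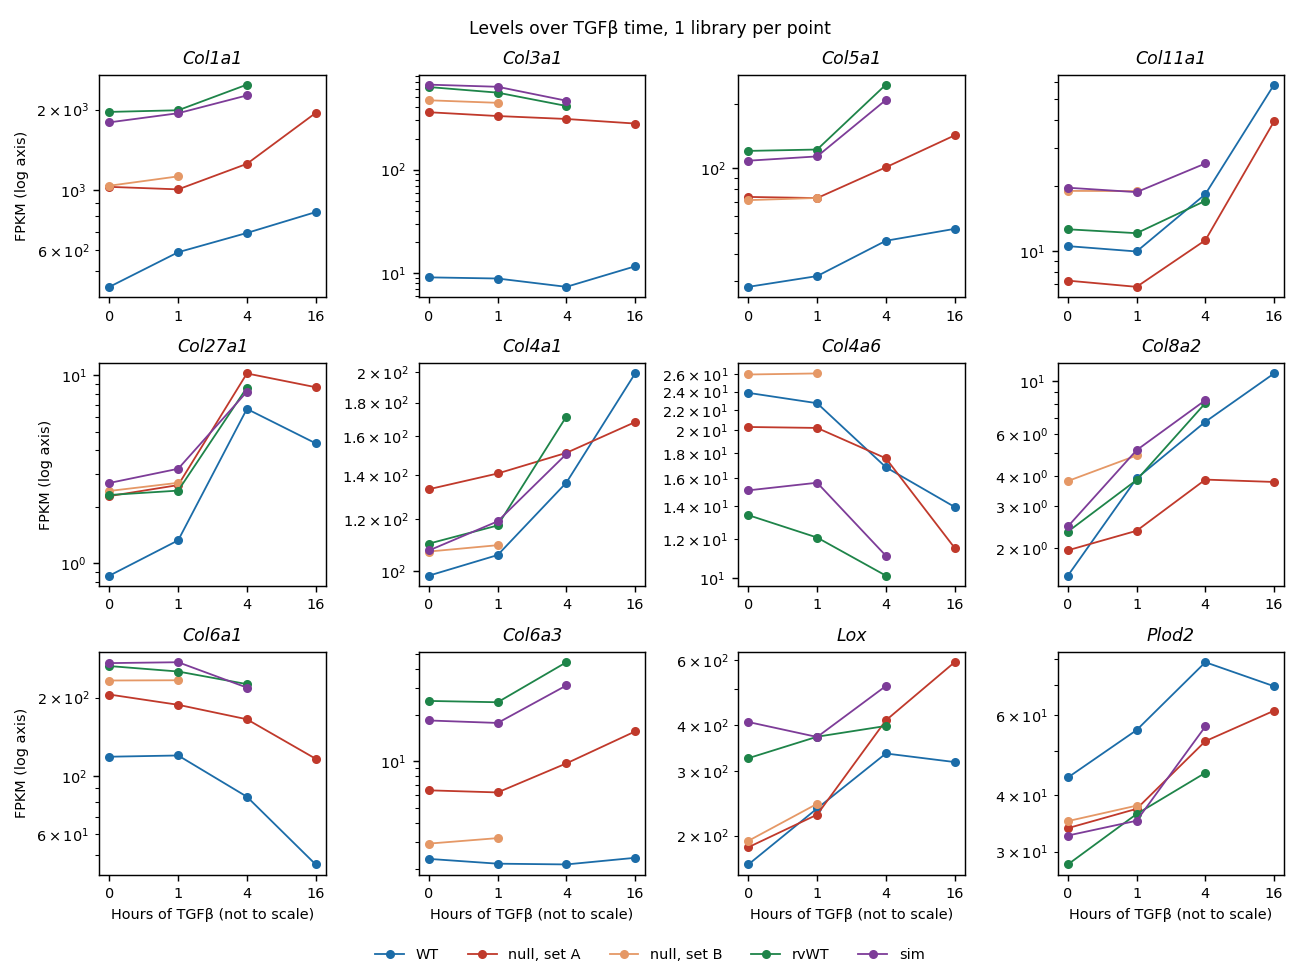
FPKM of 12 members on log axes against hours of TGFβ (spaced evenly, not to scale), with 1 library per point and 1 line per series. Col11a1 climbs to 58.5 and 39.6 FPKM at 16 h, Col6a1 falls to 45.9 FPKM in WT, and Col27a1 is highest at 4 h in each series that has that time.

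Among fibrillar chains 5 rose and 1 fell at 4 h, and 7 of 8 rose at 16 h with none falling in limma's test. Col27a1, a fibrillar chain of cartilage and developing tissues, had the largest rise at 4 h (log2 difference 1.66 ± 0.10 SE, adjusted p = 8.02e-06). Beside the values of WT and null of set A given above, it was at 2.31, 2.44 and 8.62 FPKM in rvWT and 2.68, 3.19 and 8.18 in sim, so that 4 h was the highest time in each of these series. Col11a1 rose less at 4 h (0.52) and most of all members at 16 h (log2 difference 2.30 ± 0.082 SE, adjusted p = 3.72e-07), reaching 58.5 FPKM in WT and 39.6 in null from 10.5 and 7.29. Col5a1 rose at both times (0.77 ± 0.087 and 0.97 ± 0.11 SE, adjusted p = 0.000226 and 0.000411), with changes of 0.69, 0.45, 1.02 and 0.93 at 4 h in WT, null, rvWT and sim. Col5a2 (0.21 and 0.83) rose at both times too, and Col5a3 at 16 h (log2 difference 1.38 ± 0.22 SE, adjusted p = 0.00225), from 5.66 to 23.8 FPKM in WT and from 5.44 to 11.5 in null. Of the 3 type V genes Col5a1 had the largest difference at 4 h and Col5a3 at 16 h. Col1a1 rose in all 4 series at 4 h (log2 difference 0.40 ± 0.073 SE, adjusted p = 0.00264) and further at 16 h (0.87 ± 0.10 SE). Col1a2 did not pass at 4 h (0.041 ± 0.049 SE, adjusted p = 0.525) and rose at 16 h (0.39 ± 0.064 SE, adjusted p = 0.00238), a call lost without the null 16 h library. Col3a1 was the exception and fell at 4 h (log2 difference -0.40 ± 0.11 SE, adjusted p = 0.0158), with changes of -0.27, -0.22, -0.61 and -0.52 in WT, null, rvWT and sim. That call is lost without the rvWT 0 h, the rvWT 4 h or the sim 4 h library, and at 16 h the 2 series went opposite ways (0.32 and -0.36 in WT and null).

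Promoter windows from RefSeq (GRCm38.p6, from 250 bases before to 50 after the start of transcription) were available for 30 of 42 members; the files themselves are of build mm9 and give no coordinates. Windows of Col5a1, which rose, and Col3a1, which fell, are shown because both hold the letters CAGACA (or TGTCTG on the other strand), a form of the SMAD-binding element of TGFβ signalling, here in capitals.
Col5a1 (chr2:27886175-27886474, plus strand): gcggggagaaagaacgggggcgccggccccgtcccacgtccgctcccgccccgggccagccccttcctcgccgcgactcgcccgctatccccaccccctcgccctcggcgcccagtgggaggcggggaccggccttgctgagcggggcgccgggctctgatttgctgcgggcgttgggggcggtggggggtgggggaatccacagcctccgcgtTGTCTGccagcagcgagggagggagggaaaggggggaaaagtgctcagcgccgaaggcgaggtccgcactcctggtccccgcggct
Col3a1 (chr1:45311288-45311587, plus strand): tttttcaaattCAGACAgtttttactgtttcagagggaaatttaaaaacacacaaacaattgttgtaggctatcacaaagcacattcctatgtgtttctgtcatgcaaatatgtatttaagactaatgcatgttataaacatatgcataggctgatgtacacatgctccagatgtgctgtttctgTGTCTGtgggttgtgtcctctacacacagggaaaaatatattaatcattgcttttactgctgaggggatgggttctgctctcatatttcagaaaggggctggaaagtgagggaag
These letters were found in 9 of 32 windows of the 30 members, and in 15.5% of 11236 windows of 8882 genes of the table, on either strand. Of members with a window they were present in 3 of 12 that rose, 1 of 4 that fell and 4 of 11 that did not pass at 4 h, and in 5 of 13, 0 of 4 and 3 of 10 at 16 h. The 2 promoters differ in base composition, at 75.0% G and C in Col5a1 and 37.7% in Col3a1. Only that of Col3a1 among these 2 also holds TATAAA, found in 7.12% of all windows and 4 of 32 member windows. A match is a description of the letters and does not show binding.

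Of 6 network chains tested 3 rose and 1 fell at 4 h, and 4 rose and 1 fell at 16 h. Col8a2 rose most, by 1.27 ± 0.18 SE at 4 h (adjusted p = 0.000806) and 1.49 ± 0.24 SE at 16 h (adjusted p = 0.00224). Its values over time were 1.53, 3.92, 6.77 and 10.8 FPKM in WT, 1.96, 2.37, 3.88 and 3.79 in null of set A, 2.35, 3.86 and 8.10 in rvWT and 2.47, 5.15 and 8.34 in sim, higher at 4 h than at 0 h in each. Col4a1 (0.43 ± 0.10 SE at 4 h and 0.71 ± 0.13 at 16 h) and Col4a2 (0.38 ± 0.091 and 0.70 ± 0.12 SE) rose by nearly the same amounts, with adjusted p from 0.003 to 0.00984. At 4 h the changes were 0.46, 0.18, 0.64 and 0.48 for Col4a1 and 0.49, 0.14, 0.51 and 0.39 for Col4a2 in WT, null, rvWT and sim. Col8a1 rose at 16 h (log2 difference 0.73 ± 0.13 SE, adjusted p = 0.0048), with changes of 0.33 and 1.12 in WT and null, and the call is lost without the null 16 h library. Col4a6 fell at 4 h (log2 difference -0.36 ± 0.055 SE, adjusted p = 0.00108) and at 16 h (-0.76 ± 0.072 SE, adjusted p = 0.000106), in each series measured, at 23.9, 22.7, 16.8 and 14.0 FPKM over time in WT and 20.3, 20.2, 17.5 and 11.5 in null of set A.

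Col4a1 and Col4a2 lie head to head on chromosome 8 and are transcribed in opposite directions. The RefSeq start sites used here (GRCm38.p6) are 11312826 for Col4a1 (minus strand) and 11312805 for Col4a2 (plus strand). They are 21 bases apart, and the windows share 78 bases. With these sites the 2 transcripts overlap at their starts, so the upstream part of each window lies within the partner gene. The windows are shown because Col4a1 and Col4a2 rose by like amounts with TGFβ, each in its own direction of transcription, with the CCAAT box (CCAAT or ATTGG) in capitals.
Col4a1 (chr8:11312777-11313076, minus strand): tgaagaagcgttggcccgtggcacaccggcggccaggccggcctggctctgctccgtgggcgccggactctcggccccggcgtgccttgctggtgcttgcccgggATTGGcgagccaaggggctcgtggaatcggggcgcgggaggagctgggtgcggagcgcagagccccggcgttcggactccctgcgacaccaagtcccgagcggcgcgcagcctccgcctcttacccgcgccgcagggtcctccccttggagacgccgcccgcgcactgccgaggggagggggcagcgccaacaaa
Col4a2 (chr8:11312555-11312854, plus strand): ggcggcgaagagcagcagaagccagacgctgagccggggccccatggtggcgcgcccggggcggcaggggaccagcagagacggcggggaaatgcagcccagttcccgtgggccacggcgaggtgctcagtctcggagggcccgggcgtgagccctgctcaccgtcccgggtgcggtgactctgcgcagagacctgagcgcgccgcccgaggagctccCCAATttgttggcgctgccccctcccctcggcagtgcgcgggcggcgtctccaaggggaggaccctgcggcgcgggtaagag
CCAAT was found on either strand in 9 of 32 member windows and in 38.1% of all windows, so the share of member windows is not above that of the table. The GC box letters GGGCGG were in 23 of 32 member windows and 63.6% of all windows, and the hypoxia core ACGTG in 8 of 32 and 25.6%.

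**Figure D4:**
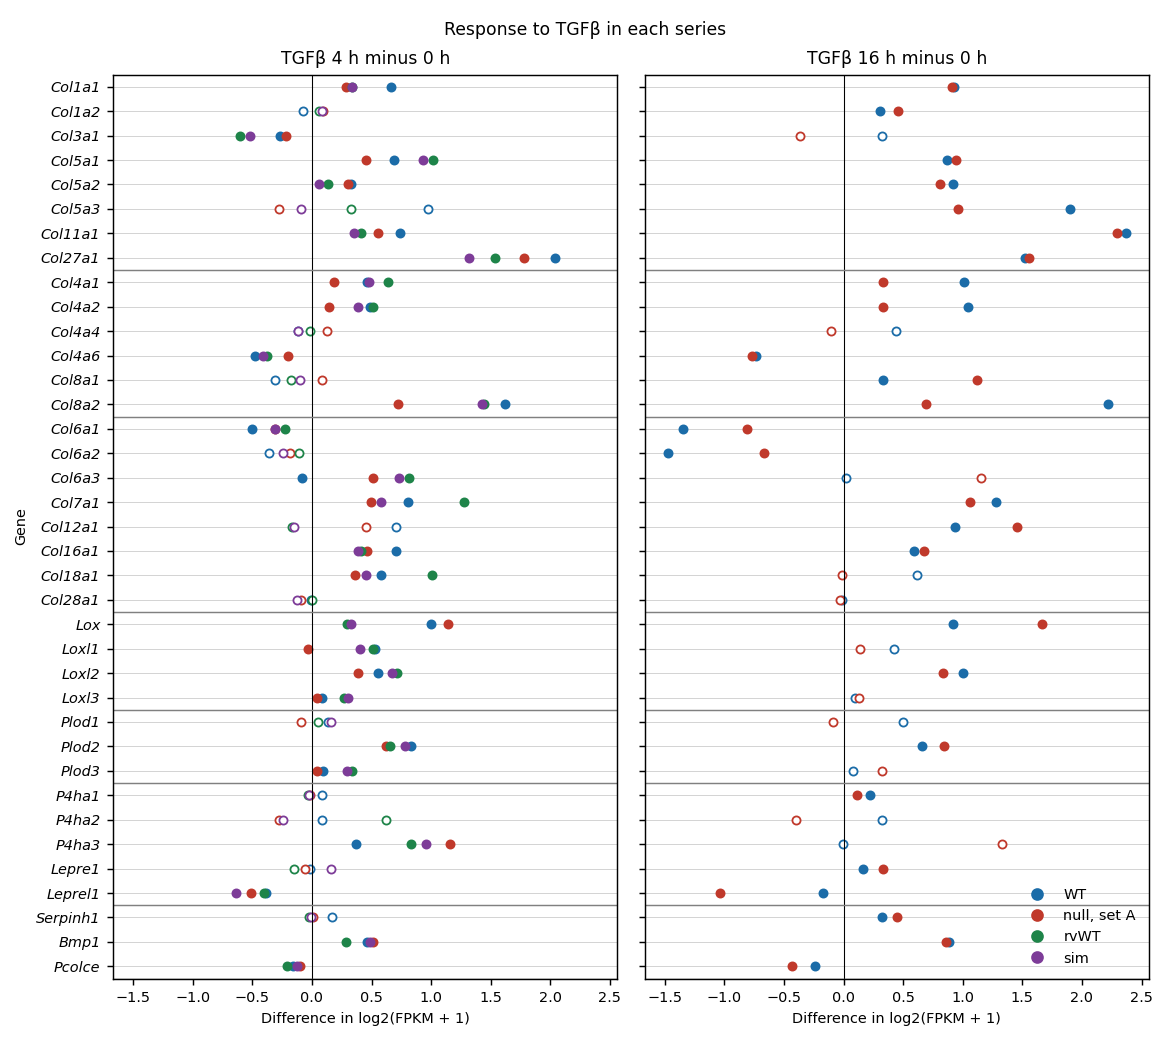
Change in log2(FPKM + 1) from the 0 h library at 4 h and 16 h of TGFβ in each series, for each member tested except Loxl4; filled points belong to members that passed in the joint fit (adjusted p below 0.05). Col27a1 and Col8a2 lie to the right in each series at 4 h, Col6a1 to the left, and Lox at 4 h is at 1.00 and 1.14 in WT and null but at 0.29 and 0.33 in rvWT and sim.

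Among the other collagens 4 rose and 1 fell at 4 h, and 3 rose and 2 fell at 16 h, of 8 tested. The type VI microfibril chains Col6a1 and Col6a2 both fell by 16 h. Col6a1 fell at 4 h (log2 difference -0.33 ± 0.086 SE, adjusted p = 0.0134) and 16 h (-1.05 ± 0.11 SE, adjusted p = 0.000243). Col6a2 fell at 16 h (-1.05 ± 0.15 SE, adjusted p = 0.00137), and its 4 h difference of -0.23 did not pass (adjusted p = 0.148). In WT Col6a1 went from 118.8 to 45.9 FPKM and Col6a2 from 77.1 to 27.1 over 16 h. In null of set A they went from 205.6 to 116.7 and from 124 to 77.9 FPKM. Their partner Col6a3 rose at 4 h (log2 difference 0.51 ± 0.17 SE, adjusted p = 0.0418), with changes of -0.083, 0.52, 0.81 and 0.73 in WT, null, rvWT and sim. The Col6a3 call is lost when any 1 of 11 libraries is left out. Col7a1 rose at 4 h (0.77) and 16 h (log2 difference 1.19 ± 0.15 SE, adjusted p = 0.000534), over time at 2.22, 2.64, 4.62 and 6.79 FPKM in WT and 1.80, 2.14, 2.96 and 4.87 in null. Col16a1 (0.49 and 0.59) rose at both times and Col18a1 at 4 h (0.59, adjusted p = 0.0045). Col12a1 did not pass at 4 h (0.22, adjusted p = 0.286), its changes of 0.71, 0.45, -0.17 and -0.15 in WT, null, rvWT and sim being of opposite sign in the 2 sets. Col12a1 rose at 16 h (log2 difference 1.07 ± 0.21 SE, adjusted p = 0.00615), to 76.5 FPKM in null from 27.3, and this call too is lost without the null 16 h library.

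Lysyl oxidases, which start the cross-links between collagen molecules, moved up. Of 5 lysyl oxidases 4 rose at 4 h and 2 at 16 h. Lox rose by 0.70 ± 0.17 SE at 4 h (adjusted p = 0.00918) and 1.12 ± 0.22 SE at 16 h (adjusted p = 0.0062). The change at 4 h was 1.00, 1.14, 0.29 and 0.33 in WT, null, rvWT and sim, larger in set A than in set B, where Lox started higher in the reconstituted lines. The 4 h response of Lox passed neither in set A alone nor in set B alone. Loxl2 rose by 0.57 ± 0.049 SE at 4 h and 0.97 ± 0.064 SE at 16 h (adjusted p = 5.99e-05 and 1.17e-05), in every series, from 37.0 to 75.3 FPKM in WT and from 74.3 to 133.4 in null over 16 h. Loxl1 (0.33, adjusted p = 0.0167) and Loxl3 (0.18, adjusted p = 0.0233) rose at 4 h, each call lost without the rvWT 0 h, rvWT 4 h or sim 4 h library and that of Loxl3 also without sim 0 h. The 16 h call of Lox is lost without the null 16 h library. Of the lysyl hydroxylases Plod2 rose at 4 h (log2 difference 0.71 ± 0.072 SE, adjusted p = 0.000123) and 16 h (0.74 ± 0.094 SE), with values over time of 28.1, 36.3 and 44.8 FPKM in rvWT and 32.5, 35.1 and 56.7 in sim beside those of WT and null given above. Plod3 rose by 0.19 at 4 h (adjusted p = 0.035), a call lost without any 1 of 8 libraries, and Plod1 passed at neither time.

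Of 5 prolyl hydroxylases 1 rose and 1 fell at 4 h, and 2 rose and 1 fell at 16 h. Of the 3 folding and processing genes 1 rose and 1 fell at 4 h, and 2 rose and 1 fell at 16 h. P4ha3, a catalytic subunit, rose at 4 h (log2 difference 0.82 ± 0.18 SE, adjusted p = 0.00728), over time at 10.8, 13.8, 14.2 and 10.7 FPKM in WT, 10.5, 13.2, 24.7 and 27.8 in null of set A, 18.6, 19.1 and 33.9 in rvWT and 19.2, 20.0 and 38.1 in sim. At 16 h WT was back at its 0 h level and null was not, and the 16 h difference did not pass (0.63, adjusted p = 0.0906). P4ha1 (0.15, adjusted p = 0.0441) and Lepre1 (0.29, adjusted p = 0.0497) passed as rises at 16 h but lost the call without 13 and 15 of the 16 single libraries. Leprel1 fell at 4 h (log2 difference -0.47 ± 0.12 SE, adjusted p = 0.0111) and 16 h (-0.58), over time at 2.08, 2.31, 1.36 and 1.74 FPKM in WT, 7.86, 6.38, 5.22 and 3.32 in null of set A, 5.58, 6.23 and 3.99 in rvWT and 7.86, 7.91 and 4.68 in sim. The 16 h call is lost without the null library at 0 h or at 16 h. Bmp1 rose at both times (0.42 ± 0.071 and 0.84 ± 0.093 SE, adjusted p = 0.00179 and 0.000295), from 10.5 to 20.3 FPKM in WT and from 23.5 to 43.5 in null over 16 h. Its enhancer Pcolce fell at 4 h (-0.15, adjusted p = 0.0174), a call lost without the WT 4 h, rvWT 0 h or sim 4 h library, and at 16 h (-0.34 ± 0.055 SE, adjusted p = 0.00231). Over 16 h Pcolce went from 127.6 to 108 FPKM in WT and from 368 to 273 in null. Serpinh1 did not pass at 4 h (0.036, adjusted p = 0.552) and rose at 16 h (log2 difference 0.37 ± 0.059 SE, adjusted p = 0.00218).

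Whether the response depends on Arkadia was tested as a difference of responses. At 4 h, with WT, rvWT and sim against null, 0 of 38 members passed in limma's test, 7 had an unadjusted p under 0.05, and 0.0362% of all genes passed (0.0181% in each direction, that is 0.0181% with a larger response in the lines with Arkadia). Those 7 were Col8a2 (0.75), Loxl1 (0.52), Col5a1 (0.42), Col4a1 (0.36), Col4a2 (0.31), Loxl2 (0.26) and Col8a1 (-0.30), with adjusted p of 0.305 to 0.399; null has a single 4 h library. At 16 h, with WT against null, 5 members passed beside 1.62% of all genes (1.17% with the more positive response in WT and 0.453% with the more negative). The rise was larger in WT for Col8a2 (log2 difference 1.40 ± 0.20 SE, adjusted p = 0.0227), Col4a1 (log2 difference 0.71 ± 0.11 SE, adjusted p = 0.0288) and Col4a2 (log2 difference 0.68 ± 0.10 SE, adjusted p = 0.0239). Col8a1 rose less in WT (log2 difference -0.77 ± 0.12 SE, adjusted p = 0.0364) and Col6a2 fell more (log2 difference -0.81 ± 0.14 SE, adjusted p = 0.045). Each line has 1 library at 16 h, and the count was 0 without any of the WT 0 h, null 0 h, null 1 h (either set for both) or sim 0 and 1 h libraries, 1 without WT 1 h or rvWT 0 h, 3 without rvWT 1 h and 11 without WT 4 h; where it was 0, 10 to 15 members had an unadjusted p under 0.05. Lox changed by 0.92 in WT and 1.67 in null at 16 h, each from its own 0 h library. In the joint fit, whose baseline also draws on 1 and 4 h libraries, its difference of responses did not pass (log2 difference -1.01 ± 0.31 SE). The 16 h libraries of WT and null are fitted exactly there. The SE and adjusted p of each 16 h difference of responses therefore rest on scatter at 0, 1 and 4 h.

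Some chains that assemble together stood at different ratios across lines, while Col6a1 to Col6a2 stayed nearly level. For WT against null no ratio passed after adjustment. The ratio of Col1a1 to Col1a2 was 7.03 to 11.8 in WT, 6.71 to 9.19 in null of set A, 6.40 to 6.92 in null of set B, 3.31 to 4.02 in rvWT and 3.63 to 4.31 in sim, and WT and null did not differ past the threshold (exact permutation test on log2 ratios, two-sided, p = 0.171, n = 4 each). Both reconstituted lines lay under all null and WT libraries. Col4a1 to Col4a2 was 2.09 to 2.15 in WT and 1.50 to 1.59 in null of set A, and 1.37 to 1.53 in the libraries of set B. Col5a2 to Col5a1 was 6.73 to 8.96 in WT and 2.19 to 2.45 in null of set A, with 1.27 to 2.88 in set B. For these ratios and for Col8a1 to Col8a2 (0.952 to 5.36 in WT, 7.26 to 15.5 in null) WT and null did not overlap, and the exact permutation test gave p = 0.0286, the smallest that 4 against 4 libraries allow, or 0.0571 adjusted over the 6 ratios. Col6a1 to Col6a2 stayed within 1.38 to 1.70 in all libraries (WT against null, exact permutation p = 0.543). The ratio of Col6a1 to Col6a3 ran from 5.11 in rvWT to 79.7 in null of set B, and was lower at 4 h than at 0 h in WT, null of set A, rvWT and sim. The 4 libraries of a line share their cells and differ in treatment, so these tests compare libraries, and they did not pair them by time.

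**Figure D5:**
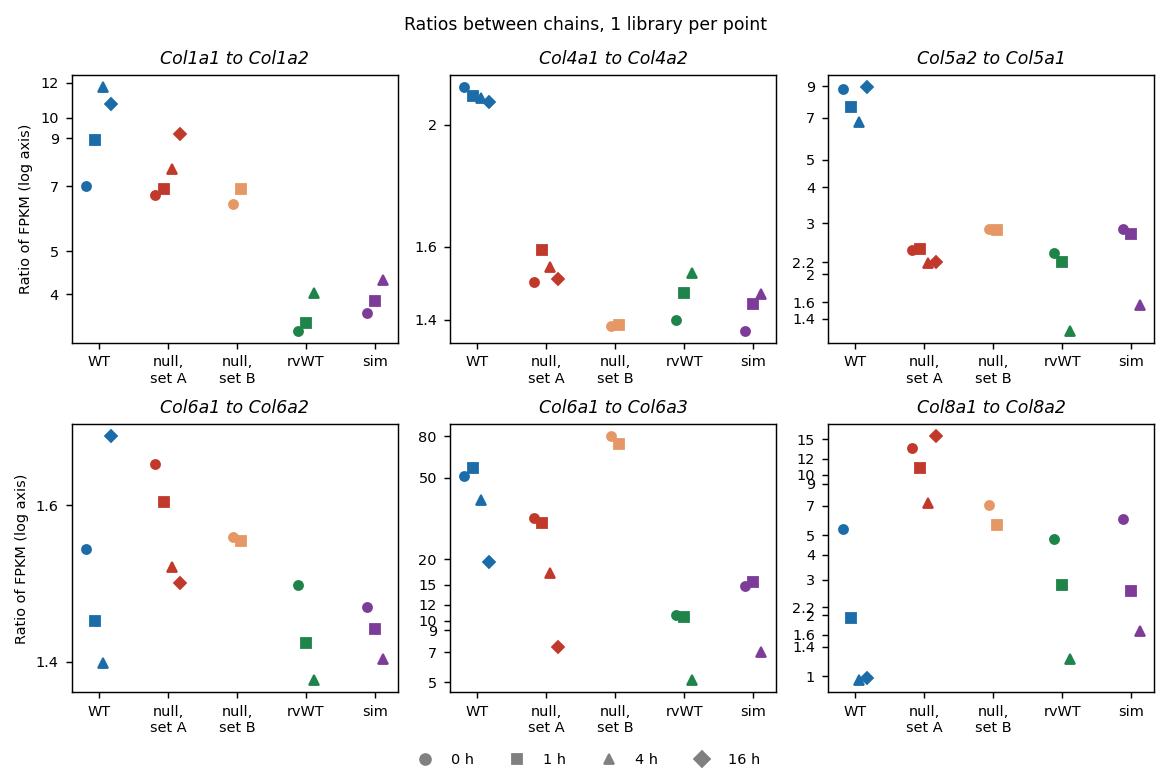
Ratio of FPKM between partner chains on log axes, 1 library per point, by series, with the shape of the point giving the hours of TGFβ. WT stands apart at 2.09 to 2.15 for Col4a1 to Col4a2 and at 6.73 to 8.96 for Col5a2 to Col5a1, and rvWT and sim stand apart for Col1a1 to Col1a2.

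Other genes of collagen folding, secretion, breakdown and reception, 31 of a list of 38 in the table, were also followed. Of 30 tested, 4 were higher and 16 lower in WT than in null, 8 higher and 8 lower in rvWT, 11 higher and 9 lower in sim, and at 4 h of TGFβ 12 rose and 5 fell, with 13 and 3 at 16 h. In all, 66.7% of these genes passed in WT against null, beside 67.5% of all genes, 53.3% in rvWT (38.6%), 66.7% in sim (34.7%), 56.7% at 4 h (39%) and 53.3% at 16 h (19.4%). The gelatinase Mmp2 was higher in WT (3.34) and lower in rvWT (-1.28) and sim (-1.11), the reverse of Col1a1 and Col1a2. The N-propeptidase Adamts2 (-2.27) and the collagen receptors Itga1 (-3.34) and Ddr2 (-2.08) were lower in WT. In rvWT Ddr2 was higher (0.45), Itga1 was lower again (-1.95) and Adamts2 did not pass (0.022). Creb3l1, a transcription factor of the secretory pathway that drives type I collagen in bone, was higher in rvWT (1.55) and sim (1.28) and rose at 1 h (0.43), 4 h (1.11) and 16 h (1.36), adjusted p = 0.00328, 1.20e-05 and 1.36e-05. Tll1, a propeptidase of the Bmp1 family, rose by 1.20 and 1.71 at 4 and 16 h, and the collagenase Mmp13 fell at 16 h (log2 difference -1.50 ± 0.16 SE).

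The 3′ UTRs of the members were searched for a match to the miR-29 family, microRNAs known to target collagen messages, and 22 of 41 held one. The mature sequences (RefSeq, GRCm38.p6) share 1 seed, bases 2 to 8, in capitals.
mmu-miR-29a-3p: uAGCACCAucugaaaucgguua
mmu-miR-29b-3p: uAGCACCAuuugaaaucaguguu
mmu-miR-29c-3p: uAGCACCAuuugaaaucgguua
The letters complementary to the seed, TGGTGCT, were searched in the 3′ UTRs of the GENCODE M21 annotation (GRCm38), on the transcript's strand. They occurred in 18 of 25 collagen chains with a UTR (72.0%) and in 4 of 16 enzymes and helpers (25.0%), beside 1618 of 11411 genes of the table (14.2%). Per 1000 bases of UTR there were 0.855 sites in the chains, 0.349 in the enzymes and helpers and 0.116 in all genes. Sites from genes named above are shown with the match in capitals, the position in the UTR counted from its first base.
Col1a1, position 919: ggaaggaatttcTGGTGCTatag
Col3a1, position 235: aaaatgtctcaaTGGTGCTataa
Col5a1, position 1018: acttgtctcttgTGGTGCTatgt
Col5a2, position 1112: ttcttttaatgaTGGTGCTaaaa
Col4a1, position 33: accgtcacaacaTGGTGCTactc
Col4a2, position 43: ggaaggccacgtTGGTGCTtatc
Col5a1 and Col4a3 held 4 sites each, Col5a3 and Lox 3 each, and Col1a2, Col6a1, Serpinh1 and P4ha1 none. At 16 h a site was present in 13 of 20 that rose, 2 of 5 that fell and 5 of 12 that did not pass, and at 4 h in 11 of 20, 2 of 5 and 7 of 12. Mature microRNAs are not measured by poly(A) libraries, so no level of miR-29 is given.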

How the data were processed

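Poly(A) RNA of 16 MEF libraries was sequenced with a stranded kit. The authors deposited 1 table of FPKM values; the submitters' processing notes name CASAVA 1.8.2, STAR 2.3.0e, SAMtools, Cufflinks 2.2.1 and build mm9, while annotation, treatment of multiply mapped reads and the role of each tool are not stated. Reads were not recovered, so precision rests on the scatter between libraries. Genes averaging 1 FPKM or more across the libraries fitted were kept, transformed to log2(FPKM + 1) and tested with limma 3.58.1 (limma-trend, R 4.3.3), Benjamini-Hochberg adjustment over all genes tested and adjusted p below 0.05; the script was tested on simulated data. Ratios were compared with scipy 1.17.1. Line differences had time as a block, TGFβ responses had series as a block. Members and lists were chosen with earlier results of these data known. Values in each library are given for the chains that co-assemble, for Lox, P4ha1, Plod2 and Serpinh1, and for up to 5 rises and 5 falls per comparison that passed and reached 5 FPKM. Alternatives were pseudocounts of 0.1 and 5, quantile normalization or median-ratio scaling, no filter or one at 5 FPKM, limma with robust variances or without its trend, a log2 threshold of 1, other terms, single sets and each library left out. The TGFβ fit without the WT series was added after seeing the data.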

Additional observations from a re-analysis of the deposited data

Results flagged for a closer look

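The 16 h response to TGFβ differed between WT and null, by a test of the difference itself, for 5 members, each with 1 library per line at 16 h. Col8a2 went from 1.53 to 10.8 FPKM in WT and from 1.96 to 3.79 in null over 16 h, a difference of responses of 1.40 on the log2 scale in the joint fit. Col4a1 went from 98.5 to 199.3 FPKM in WT and from 133.1 to 168.2 in null (0.71), and Col4a2 from 45.9 to 95.5 in WT and from 88.6 to 111.6 in null (0.68). The responses of Col8a1 differed in the other direction (-0.77), from 8.22 to 10.6 FPKM in WT against 26.5 to 58.6 in null. Col6a2 went from 77.1 to 27.1 FPKM in WT and from 124 to 77.9 in null (-0.81). The test of these differences holds no measure of scatter at 16 h. The counts without single libraries, given in the report, run from 0 to 11.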

How the results depend on the processing

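No direction of a called member reversed under any alternative run: of 132 called member results, 29 kept the call in every alternative, and of 2931 alternatives 2515 kept the call and 416 kept the direction without it. The member counts moved as follows. A log2 threshold of 1 left 16 of 29 for WT minus null, 5 of 23 for rvWT minus null, 3 of 21 for sim minus null, 0 of 3 for sim minus rvWT (16 at an unadjusted p under 0.05, limma), 2 of 25 at 4 h, 9 of 26 at 16 h and 1 of 5 for the 16 h response of WT minus null. Over all genes it left 499 higher and 837 lower for WT minus null, 198 and 453 for rvWT and 177 and 378 for sim. For sim minus rvWT it left 3 and 3, at 4 h 120 and 46, at 16 h 122 and 110, and for the 16 h response 38 and 34. Without the time term the counts were 15 for rvWT minus null, 12 for sim minus null and 0 for sim minus rvWT (6 at an unadjusted p under 0.05). Quantile normalization gave 1 at 1 h in place of 0, and median-ratio scaling 3 for the 16 h response. In set A alone 1 was called at 4 h and 12 at 16 h, beside 13 genes higher and 3 lower at 4 h and 121 and 124 at 16 h over all genes. With null of both sets the counts were 18 for rvWT and 16 for sim. Over all genes 1658 were then higher and 2462 lower in rvWT, and 1369 and 2224 in sim. Leaving out 1 library gave 28 to 31 for WT minus null, 13 to 24 for rvWT minus null, 12 to 20 for sim minus null, 0 for sim minus rvWT, 0 to 2 at 1 h (2 without null 0 h of set A), 19 to 26 at 4 h, 21 to 28 at 16 h and 0 to 11 for the 16 h response; the 4 h response by Arkadia status stayed at 0. The cause of these shifts was not tested.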
